A study of Mus musculus with 8 samples.

Results

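The SOX genes encode transcription factors that bind DNA through an HMG box related to that of SRY. They were followed in mouse embryonic fibroblasts (MEFs), in those cells during reprogramming, and in the induced pluripotent stem (iPS) cells obtained, here iPSCs. The 10 genes listed for description were Sox2, Sox4, Sox5, Sox6, Sox8, Sox9, Sox11, Sox12, Sox15 and Sox17, chosen by gene symbol. Of these, 9 had a row among the 17922 rows of the deposited expression table, and Sox17 was not analysed here. Sox4 stood on 2 rows, and the higher one (ENSMUSG00000076431) was used. Of the 10 other genes of the mouse family, 6 had a row, so 15 of 20 Sox genes were measured.

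The data are 4 long RNA libraries of C57BL/6 background, 1 for each stage. MEFs came from 13.5-day embryos of a mouse that carries tetO-OSKM, doxycycline-responsive copies of Pou5f1 (OCT4), Sox2, Klf4 and Myc, and represent day 0 before induction. Cells at day 3 and day 6 had received 2 ug/ml doxycycline in a medium with 15% Knockout Serum Replacement, 1000 U/mL LIF and 3 uM CHIR99021, an inhibitor of GSK3. The iPSCs are described as fully reprogrammed, and the number of lines, their medium and the tet activator were not given in the sources used here. All 4 stages share the tetO-OSKM background, and reads of the transgenic Sox2 and of the resident Sox2 were counted on 1 row.

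SOX proteins bend DNA at short AT-rich sites and usually act with a partner factor. In pluripotent cells SOX2 pairs with OCT4 on composite elements, and the pair acts on genes such as Nanog and Fgf4 and on Pou5f1 and Sox2 themselves. In mesenchyme, SOX9 with SOX5 and SOX6 acts on cartilage matrix genes. The SOXC proteins SOX4, SOX11 and SOX12 are known from progenitor cells of many tissues.

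Levels are FPKM, fragments scaled to gene length and library size, so levels of different genes can be set side by side per length. Differences between stages are on the log2(FPKM + 1) scale, which understates differences of weakly expressed genes. Genes count here as higher or lower where that difference reached 1 (2-fold in FPKM + 1) and the larger value reached 1 FPKM. A gene within the rule can thus differ by over 2-fold in FPKM, as Sox2 did at day 3 against MEFs (2.89). With 1 library per stage there is no replicate error, no test and no p-value. As a scale, the robust SD of the log2 difference over rows with a mean of 1 to 10 FPKM was 0.179 for day 3 against MEFs, 0.217 for day 6 against day 3, 0.245 for day 6 against MEFs and 1.37 for iPSCs against MEFs. It holds real differences as well as noise. Sequencing depth is unknown, but ratios of the lowest values put the fragments of the day 3 library at 0.669 of those of the MEF library, with day 6 at 0.993 and iPSCs at 1.04. Of 6 fibroblast markers, all were at or above 1 FPKM in each of the 3 earlier libraries and 5 in iPSCs, with a sum of 68.9 FPKM in iPSCs and 4406 in MEFs. Of 6 pluripotency markers all reached 1 FPKM in iPSCs and 0 in the other libraries.

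The promoters of the 2 SOX genes with the highest level in iPSCs, Sox2 and Sox15, and of 2 SOXC genes that differed in opposite directions in iPSCs, Sox12 and Sox4, are shown because they set the stage pattern beside the sequence at the start of the gene. Each line gives the 250 bases before the RefSeq start, 5′ to 3′ on the gene's strand, with CG pairs in capitals.
Sox2 (GRCm38.p6, chr3:34649745-34649994, plus strand): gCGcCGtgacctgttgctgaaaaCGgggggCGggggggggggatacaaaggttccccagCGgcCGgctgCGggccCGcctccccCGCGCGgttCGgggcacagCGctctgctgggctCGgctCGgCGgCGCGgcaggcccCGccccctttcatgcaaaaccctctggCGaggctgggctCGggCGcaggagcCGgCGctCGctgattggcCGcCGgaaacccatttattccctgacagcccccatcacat
Sox15 (GRCm38.p6, chr11:69654787-69655036, plus strand): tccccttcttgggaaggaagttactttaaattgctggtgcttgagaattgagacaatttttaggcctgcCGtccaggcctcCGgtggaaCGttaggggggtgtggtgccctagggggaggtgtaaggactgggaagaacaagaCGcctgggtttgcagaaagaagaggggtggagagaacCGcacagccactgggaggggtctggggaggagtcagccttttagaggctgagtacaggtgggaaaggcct
Sox12 (GRCm38.p6, chr2:152398047-152398296, minus strand): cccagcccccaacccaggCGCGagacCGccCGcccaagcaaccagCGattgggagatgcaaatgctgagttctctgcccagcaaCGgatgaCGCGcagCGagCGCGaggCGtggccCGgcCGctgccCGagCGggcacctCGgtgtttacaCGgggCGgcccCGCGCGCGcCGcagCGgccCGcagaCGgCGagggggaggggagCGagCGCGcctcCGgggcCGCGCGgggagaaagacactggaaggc
Sox4 (GRCm38.p6, chr13:28953700-28953949, minus strand): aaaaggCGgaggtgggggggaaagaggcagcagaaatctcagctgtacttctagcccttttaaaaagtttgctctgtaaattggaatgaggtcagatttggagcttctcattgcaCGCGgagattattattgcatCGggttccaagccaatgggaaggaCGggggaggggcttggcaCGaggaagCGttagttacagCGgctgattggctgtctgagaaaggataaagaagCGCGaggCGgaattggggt

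The 4 windows differed in composition. The Sox2 window held 27 CG pairs and was 72.0% G and C, and the Sox12 window held 35 at 74.4%. The Sox4 window held 11 at 50.8%, and the Sox15 window held 5 at 55.6%. Over 32851 RefSeq promoter windows of the same length the medians were 6 CG pairs and 52.4%. Sox2 and Sox15, which had the 2 highest levels of the family in iPSCs, thus differed at their starts, with a CG count far above the median for Sox2 and near it for Sox15.

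Of the 10 listed genes, 8 had a window in the promoter table, with 6 windows for Sox6 alone and 13 in all. Motif cores of the induced factors were looked for on both strands, in the same 250 bases. The octamer core of OCT4 (TGCAAAT) was found in the Sox12 window alone among the 13, starting 194 bases before the gene start, and in 3.56% of all windows. The SOX core (AACAAT) was found in 1 Sox6 window and in 9.42% of all windows. The E-box (CACGTG), to which MYC binds, was found in the Sox8 window and in 6.02% of all, and the KLF core (CACCC) in the windows of Sox8, Sox11 and Sox15 and 1 of Sox6, and in 52.0% of all. No motif holds another, and a match is a description of these letters only.

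Sox2, the SOXB1 gene among the induced factors, had the largest log2 difference of the measured SOX genes between iPSCs and MEFs, under each pseudocount and scaling tried. Its level was 0.411 FPKM in MEFs, 1.19 on day 3, 2.03 on day 6 and 88.7 in iPSCs. The values are ordered by stage, and the day 6 value was 2.29% of the iPSC value. The log2 difference was 0.63 for day 3 against MEFs and 0.47 for day 6 against day 3, both under 1, and 1.10 for day 6 against MEFs, just past the rule. The difference for day 6 against MEFs had rank 79 from the highest of 11816 rows compared. In iPSCs Sox2 was 216 times its MEF level in FPKM, a log2 difference of 5.99 with rank 27 of 12937.

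**Figure D1:**
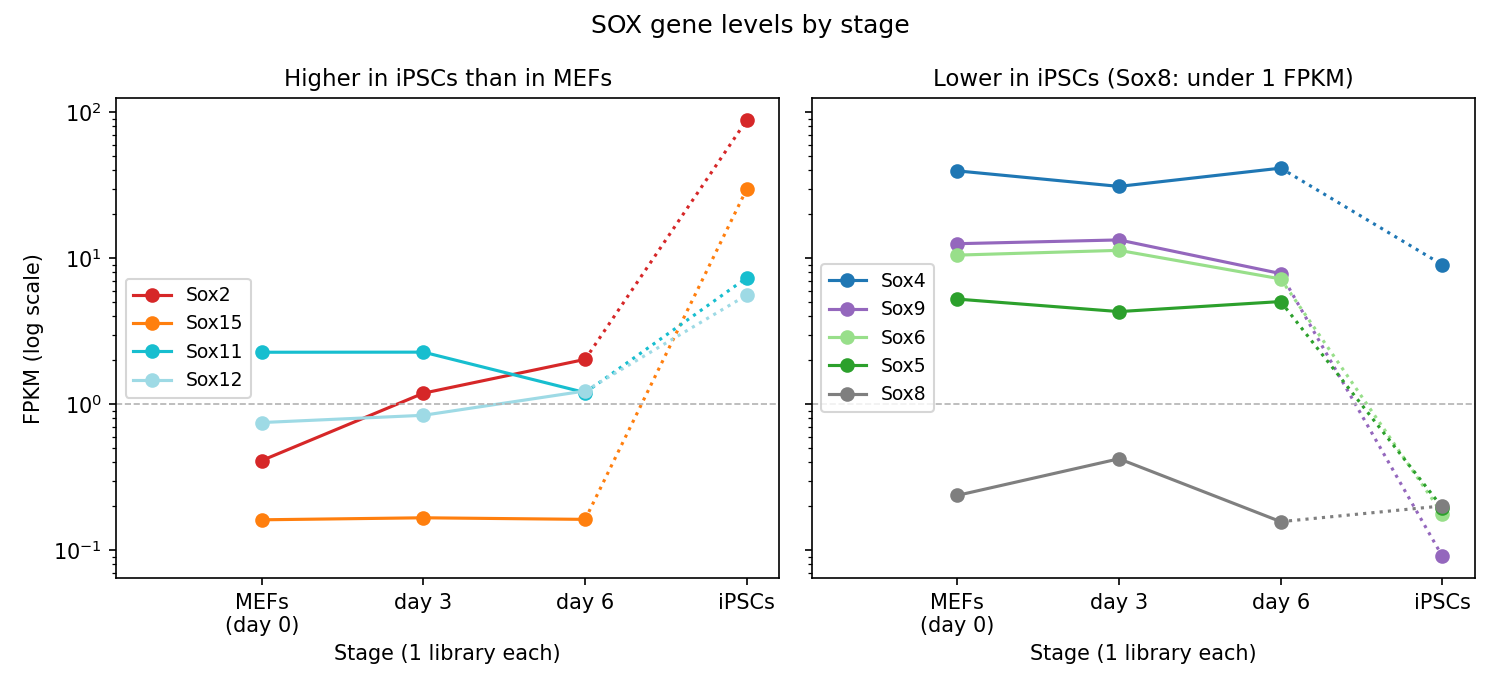
Level of each SOX gene in FPKM (log axis) at the 4 stages, 1 point per library. Solid lines join MEFs, day 3 and day 6, dotted lines lead to iPSCs, and the dashed line marks 1 FPKM. In iPSCs, Sox2 (88.7 FPKM) and Sox15 (29.9 FPKM) lie above all others, while Sox9, Sox6 and Sox5 lie below 0.2 FPKM.

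The increments of the induced factors over MEFs were unequal. At day 6 Sox2 was 1.62 FPKM above its MEF level, against 8.33 FPKM for Pou5f1, 6.06 for Myc and 1.46 for Klf4. At day 3 the increments were 0.779 FPKM for Sox2, 2.81 for Pou5f1, 4.38 for Myc and 3.11 for Klf4. Myc and Klf4 started from 16.8 and 10.6 FPKM in MEFs, so that Sox2 had the second largest log2 difference of the 4 factors at both days, after Pou5f1. What part of these increments came from the transgenes, the resident genes or the medium was not tested. FPKM is scaled to the length of gene models that were not given, and how much of them a transgene transcript covers was not tested. In RefSeq the long noncoding gene Sox2ot spans Sox2, so reads of the 2 genes may share the Sox2 row.

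Among the 9 listed genes with a row, Sox2 ranked 7 in MEFs, 6 on day 3, 5 on day 6 and 1 in iPSCs. Its share of their summed FPKM was 0.573% in MEFs, 1.83% on day 3, 3.06% on day 6 and 62.8% in iPSCs. The resident paralogs together stood at 71.4 FPKM in MEFs, 63.7 on day 3, 64.3 on day 6 and 52.5 in iPSCs. During induction the paralogs thus outweighed Sox2 in each library, and in iPSCs Sox2 outweighed them. The sum over the 9 genes was 141 FPKM in iPSCs and 71.8 in MEFs.

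**Figure D2:**
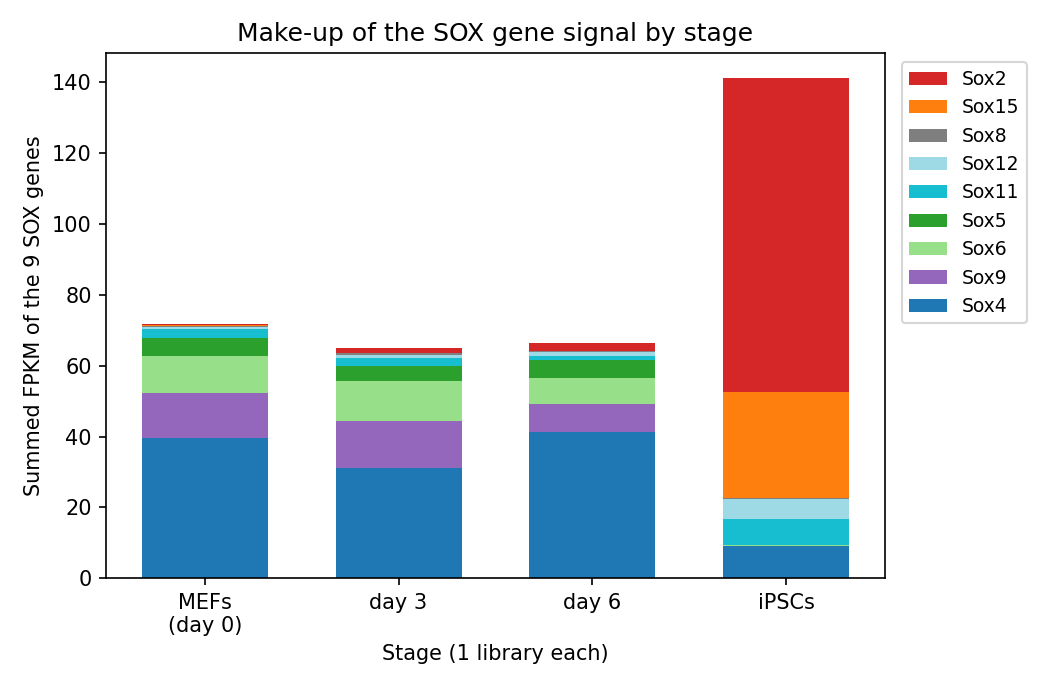
Summed FPKM of the 9 SOX genes at each stage, with each gene as a segment (1 library per stage). Sox4 is the largest segment in the 3 earlier libraries (39.7, 31.04 and 41.4 FPKM), and Sox2 is the largest in iPSCs (88.7 FPKM).

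Sox15, the only SOXG gene, which can pair with OCT4 and is present in mouse embryonic stem cells, was at 0.161 FPKM in MEFs, 0.167 on day 3, 0.162 on day 6 and 29.9 in iPSCs. The first 3 values are close together and the iPSC value stands apart. The log2 difference for iPSCs against MEFs was 4.73 (rank 74 of 12937), a ratio of 185 in FPKM. For iPSCs against day 6 the order of Sox2 and Sox15 depended on the scale. The log2 difference was 4.89 for Sox2 and 4.73 for Sox15, but 5.38 and 6.84 with a pseudocount of 0.1, 5.21 and 5.67 after rescaling to the same sum, and as ratios of FPKM 43.8 and 184. In contrast to Sox2, the Sox15 level at day 6 was 0.544% of the iPSC level, near the 0.540% of MEFs. Sox15 overlaps Mpdu1 in RefSeq, and Mpdu1, a gene of dolichol-linked sugar use, was at 21.7, 21.9, 19.3 and 38.5 FPKM over the 4 stages.

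The SOXC genes split. Sox4 was at 39.7 FPKM in MEFs, 31.04 on day 3, 41.4 on day 6 and 9.01 in iPSCs. It was the most abundant SOX gene per length in the first 3 libraries, and in iPSCs it ranked 3. Its log2 difference was -2.02 for iPSCs against MEFs, and it was within the rule between the earlier stages (-0.34 for day 3 against MEFs and 0.40 for day 6 against day 3). The other row named Sox4 (ENSMUSG00000078309, an identifier with no current symbol in the reference table) was at 2.54, 1.16, 1.45 and 0.835 FPKM over the 4 stages, with a difference of -0.95 for iPSCs against MEFs that did not reach the rule.

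Sox11 and Sox12 went the other way in iPSCs. Sox11, a factor of neural and mesenchymal progenitors, was at 2.27 FPKM in MEFs, 2.27 on day 3, 1.20 on day 6 and 7.36 in iPSCs. It was thus lowest at day 6 and highest in iPSCs, with a log2 difference of -0.57 for day 6 against day 3 and 1.35 for iPSCs against MEFs. Sox12 was at 0.748, 0.839, 1.23 and 5.60 FPKM, in the order of the stages, with 1.92 for iPSCs against MEFs. At day 6 Sox11 and Sox12 were nearly level, and the sum of the 3 SOXC genes was 22.0 FPKM in iPSCs and 42.7 in MEFs.

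Of the 2 SOXC targets listed, Tubb3, a neuronal tubulin gene, was at 5.62, 9.91, 19.1 and 9.82 FPKM over the 4 stages, higher by the rule at day 6 against MEFs (log2 difference 1.60). Tead2, a partner of YAP, was at 26.1, 23.5, 23.8 and 63.0 FPKM, higher in iPSCs than in MEFs (1.24).

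The chondrogenic genes Sox9, Sox6 and Sox5 ranked 2, 3 and 4 among the 9 listed genes with a row in MEFs and 9, 8 and 7 in iPSCs. Sox9, which directs cartilage formation, was at 12.6 FPKM in MEFs, 13.3 on day 3, 7.85 on day 6 and 0.0905 in iPSCs. Sox6, a SOXD gene whose protein acts with SOX9, was at 10.5, 11.3, 7.21 and 0.177 FPKM. Sox5, its close relative, was at 5.25, 4.31, 5.05 and 0.196 FPKM. For iPSCs against MEFs the log2 differences were -3.64 for Sox9, -3.29 for Sox6 and -2.39 for Sox5, all lower by the rule. The antisense gene 1110006G14Rik (Sox6os) overlaps Sox6 in RefSeq and was at 0.577, 1.18, 0.796 and 0.0888 FPKM.

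Sox9 and Sox6 were already below day 3 at day 6, by -0.70 and -0.59 on the log2 scale, while Sox5 was above it by 0.19. None of these reached the rule. Sox9 had rank 175 and Sox6 rank 308 from the lowest of 11817 rows compared. Among pairs of the 9 listed genes with a row, Sox6 and Sox9 had the most alike profiles over the 4 libraries. Their distance was 0.28 in log2 units after subtracting each mean, followed by Sox4 and Sox5 (0.35). Rows outside the family lay nearer to each, with Lbh at 0.060 from Sox9 and Rusc2 at 0.102 from Sox6. Pairs with the other Sox genes were not compared.

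The cartilage targets of SOX9, SOX5 and SOX6 were followed beside them. Of 12 listed, all had a row and 11 were compared between day 6 and day 3. At day 6, 10 of the 11 were below day 3, 1 of them by the rule (0.398% of all rows were called lower), with a median of -0.78 against -0.012 over all rows. The one past the rule was Hapln1, a link protein of cartilage matrix, at 6.84 FPKM at day 6 and 17.8 at day 3. Col2a1, the main cartilage collagen, was at 503 and 941 FPKM, and Acan, the gene of aggrecan, at 17.8 and 33.7. Comp, a matrix protein of cartilage and tendon, was level at 7.75 and 7.15 FPKM.

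In iPSCs 9 of the 11 cartilage targets compared were lower than in MEFs (25.0% of all rows), with a median of -3.43. Col2a1 was at 1.79 FPKM in iPSCs and 740 in MEFs, Col11a1 at 2.32 and 289, Acan at 1.11 and 29.3, and Hapln1 at 0.0108 and 17.6. Col9a1 was listed at 0 in iPSCs and at 17.2 FPKM in MEFs. Matn3 (2.87 and 2.01 FPKM) and Col9a2 (2.69 and 4.59 FPKM) were within the rule. The 6 cartilage cell markers are all among the listed cartilage targets, so they are no separate evidence. Of these, 5 were at or above 1 FPKM in each of the first 3 libraries and 2 in iPSCs. Their summed levels were 812 FPKM in MEFs, 1017 on day 3, 546 on day 6 and 3.60 in iPSCs. Most of the sum in the first 3 libraries was Col2a1 alone, at 740, 941 and 503 FPKM. In bulk samples fewer cells of a type and less RNA per cell cannot be told apart, and the part of cartilage-like cells in the Sox9, Sox6 and Sox5 values was not tested.

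**Figure D3:**
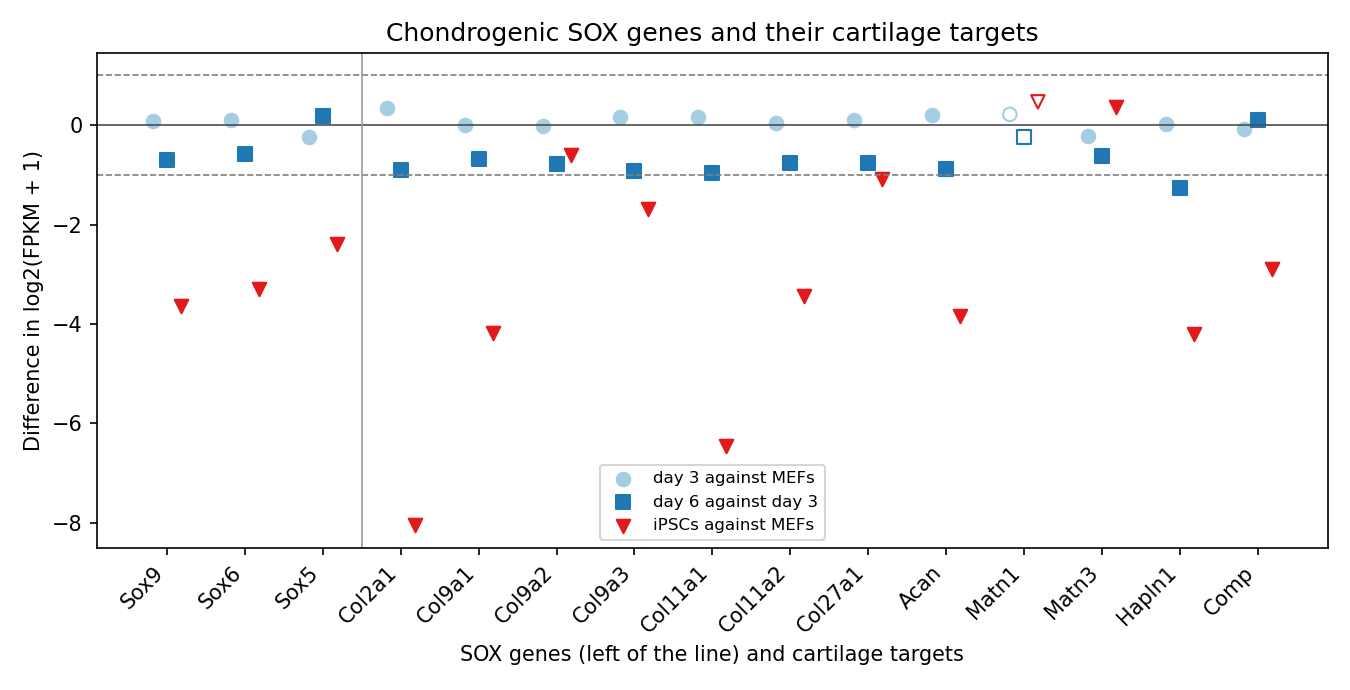
Difference in log2(FPKM + 1) for Sox9, Sox6 and Sox5 (left of the vertical line) and 12 cartilage targets, for day 3 against MEFs, day 6 against day 3 and iPSCs against MEFs (1 library per stage, so no error). Open symbols are under 1 FPKM in both libraries and dashed lines mark the rule of 1. Squares for day 6 lie below 0 for Sox9, Sox6 and all targets but Comp.

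Sox8, the SOXE relative of Sox9, stayed under 1 FPKM in all 4 libraries and was compared in no contrast. It was at 0.237 FPKM in MEFs, 0.423 on day 3, 0.157 on day 6 and 0.201 in iPSCs. Sox8 had the highest value in the shallowest library, and values this low are imprecise. In iPSCs, Sox8, Sox5 and Sox6 lay within 0.03 FPKM of each other.

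Across the listed genes, 4 were higher (Sox2, Sox15, Sox12 and Sox11) and 4 lower (Sox4, Sox5, Sox6 and Sox9) in iPSCs than in MEFs, 1 was under 1 FPKM and 1 had no value. Of all 12937 rows compared, 21.1% were higher and 25.0% lower. Sox2, Sox15 and Sox12 were under 1 FPKM in MEFs, so they were compared only through their iPSC values and could not be called lower. The median difference was -0.33 over the 8 SOX genes compared and -0.043 with Sox8 included, against -0.045 over all rows. With 4 genes on each side, the median describes none of them. With a pseudocount of 5, Sox5 no longer reached the rule (-0.98 against MEFs), nor did Sox11 (0.77) and Sox12 (0.88). Against day 6 the same 4 and 4 genes passed the rule in iPSCs (20.4% of rows higher, 23.4% lower). The 2 comparisons share the iPSC library.

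During induction 1 listed SOX gene passed the rule, Sox2 at day 6 against MEFs, of 7 compared (0.770% of all rows were higher and 0.584% lower). Sox2 and Sox12 were under 1 FPKM in MEFs, so there they were compared only through their day 6 values and could not be called lower. Between day 3 and MEFs, 0 of 6 compared passed (0.170% of all rows were higher and 0.0511% lower), and between day 6 and day 3, 0 of 7 (0.457% higher and 0.398% lower). Between day 6 and day 3, Sox9, Sox6 and Sox11 had differences of -0.57 or below, and Sox2 and Sox4 were above day 3 by 0.47 and 0.40. Sox11 at day 6 against MEFs stood at -0.57 and Sox9 at -0.62.

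**Figure D4:**
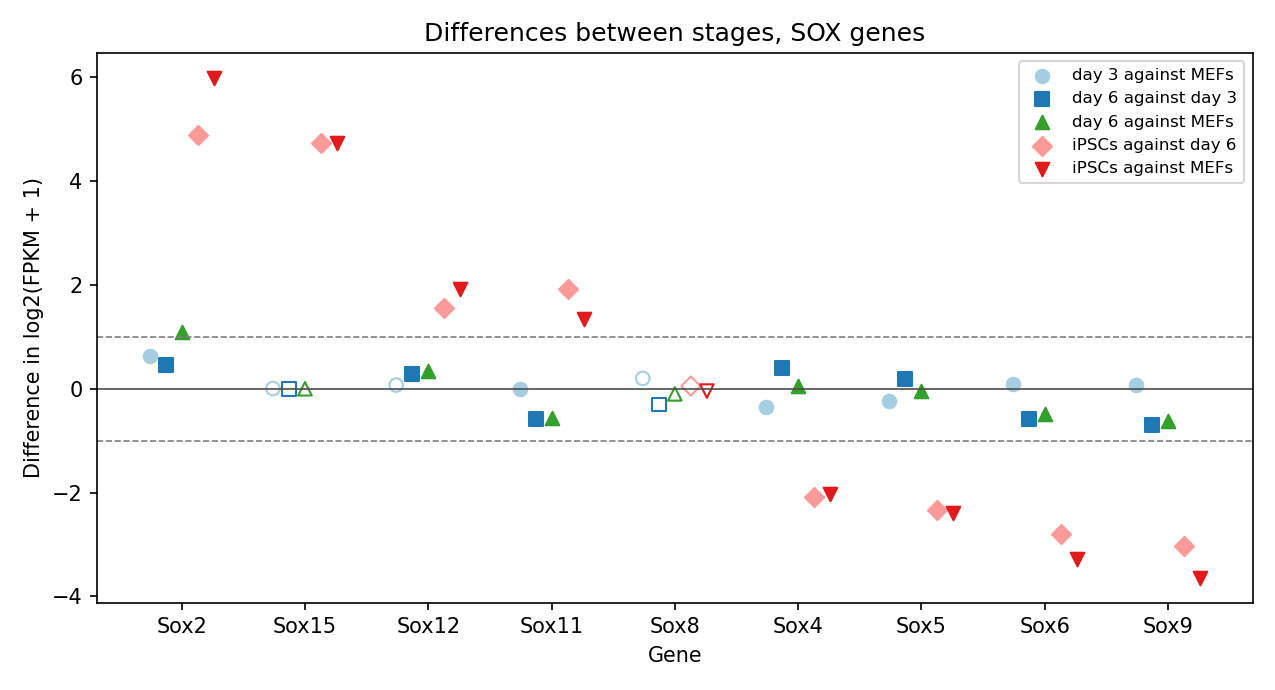
Difference in log2(FPKM + 1) of each of the 9 listed SOX genes with a row, in 5 comparisons of stages (1 library per stage, so no error). Dashed lines mark the rule of 1, and open symbols are under 1 FPKM in both libraries. Among the comparisons without iPSCs, the Sox2 symbol for day 6 against MEFs (1.10) lies past the rule.

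Genes known to carry an OCT4-SOX2 composite element were low at day 6, when Sox2 was at 2.03 FPKM, and high in iPSCs. Apart from Pou5f1, which was itself induced, the 6 others listed (Nanog, Fgf4, Utf1, Fbxo15, Lefty1 and Zscan10) stayed under 1 FPKM in each of the 3 earlier libraries. All 7 were higher in iPSCs than in MEFs (21.1% of all rows), with a median of 6.08. Each of the 7 was under 1 FPKM in MEFs. They were thus compared only through their iPSC values, none could be called lower, and the count beside the share is no test. Fgf4, a growth factor of the inner cell mass, was at 73.1 FPKM in iPSCs and 0.0236 in MEFs. Utf1, a chromatin factor, was at 67.7 and 0.0172, and Fbxo15, an F-box gene, at 66.8 and 0.0874. Lefty1, an inhibitor of Nodal, was at 4.31 and 0.377.

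The 6 other measured genes of the family were all highest in iPSCs, and 2 of them were compared there. Sox13, the remaining SOXD gene, was at 1.09, 1.26, 1.505 and 4.41 FPKM over the 4 stages, a log2 difference of 1.37 for iPSCs against MEFs, opposite in sign to Sox5 and Sox6. Sox7, a SOXF gene of endoderm and endothelium, was at 1.80 FPKM in iPSCs and listed at 0 in MEFs, also higher by the rule. Sox7 was compared only through its iPSC value and could not be called lower. Sox21, a SOXB2 gene, was at 0.931 FPKM in iPSCs and 0.0407 in MEFs, just under the minimum of 1 FPKM. Sox30, Sox18 and Sox10 were at 0.376, 0.343 and 0.116 FPKM in iPSCs and under 0.1 FPKM in MEFs.

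The rows most like Sox2 over the 4 libraries, by the distance of log2 profiles after subtracting each row's mean, were Cdh1 (distance 0.16), Cldn4 (0.50), Slc38a4 (0.68), Ndufa4l2 (0.69) and Aldoc (0.72). Cdh1, the gene of E-cadherin, was at 0.0818, 0.431, 1.14 and 63.1 FPKM over the 4 stages. Cldn4, a tight junction gene, was at 0.0757, 0.0559, 0.982 and 61.7 FPKM. For Sox15 the nearest were Pecam1 (0.028), Dazl (0.036) and Triml1 (0.036), which were each under 0.1 FPKM in the first 3 libraries. For Sox9 they were Lbh, Kcnk2 and 4930523C07Rik, and for Sox6 Rusc2, 2310022B05Rik and 2010111I01Rik. Those nearest to Sox5 were Fam171a2, Irx5 and Smad6, and those nearest to Sox4 were Lrp3, Gm1673 and Baalc. Sox11 had Stap2, 5730469M10Rik and Gabbr1, and Sox12 had Cks2, a cell cycle gene, Zc3hc1 and the histone gene Hist1h2bh. With 4 libraries such likeness is a description of 4 values per gene.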

How the data were processed

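Long RNA was measured in 4 libraries, 1 per stage, and the 4 small RNA libraries are not analysed here. Per the labels' protocols, a Ribo-zero kit removed ribosomal RNA and the NEBNext Ultra kit made the libraries. The deposited values are FPKM per gene and stage, per the file headers. The submitters' processing notes name HISAT2, Cufflinks and mm9, and versions, gene models, strand setting, filters and pooling were not given in the sources used here. FPKM is a share of a library, not molecules per cell.

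Differences of log2(FPKM + 1) and the rule of size were computed over all rows with Python 3.11.15, numpy 2.4.6 and pandas 2.3.3. The code was checked on simulated data without noise, which cannot show how the rule behaves with 1 library per stage. Alternative pseudocounts, size rules, filters and scalings were tried. The members and lists were chosen with earlier results of these data known. Named are all Sox genes, the other induced factors, up to 5 genes per list with the largest difference between iPSCs and MEFs, and the 5 rows nearest to Sox2 or 3 nearest to each other member. Comp, Matn3, Col9a2, Lefty1 and the markers of other cell types were chosen after their values were seen. A symbol on several rows is represented by its highest. Promoters and gene overlaps are RefSeq's on GRCm38.p6, matched by symbol.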

Additional observations from a re-analysis of the deposited data

How the results depend on the processing

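No paired analysis was possible because each stage had 1 library, and no replicate could be left out for the same reason. Of 98 counts and shares under alternatives, 87 stayed within 1.5 times the main value. Among them were all those under the 3 rescalings of the libraries and all shares of Sox2 with all Sox genes or all rows summed. The counts without a filter are also among the 87, but they could not differ. With a pseudocount of 1, a difference of 1 is possible only where the larger value reaches 1 FPKM. Those outside 1.5 times were all counts of SOX genes past the rule. For day 3 against MEFs (0 higher), a pseudocount of 0.1 gave 1 higher and a 1.5-fold rule 1 higher, which was Sox2 each time. For day 6 against MEFs (1 higher, Sox2), a pseudocount of 5, a log2 difference of 2 and a minimum of 5 FPKM each gave 0 higher, and the 1.5-fold rule gave 1 lower, Sox9. For day 6 against day 3 (0 lower), the 1.5-fold rule gave 2 lower, Sox6 and Sox9. For iPSCs against day 6 and against MEFs (4 higher each), a pseudocount of 5 and a log2 difference of 2 each gave 2 higher, Sox2 and Sox15, and the pseudocount of 5 left 3 of the 4 lower, without Sox5 (-0.95 and -0.98). A higher pseudocount or threshold lowers such counts by construction. Of 230 differences of single genes under alternatives, 182 stayed within 0.1 of the main value or within 1.5 times it, and 48 did neither. Of the differences past the rule in the main setting, 0 reversed in sign. The other Sox4 row, tried after seeing the data, gave -0.95 for iPSCs against MEFs. For day 6 against MEFs it gave -0.53, where the row used gave 0.061. Depth limits most the genes with the lowest values, which were Sox8 and Sox15 in the first 3 libraries and Sox9, Sox6, Sox5 and Sox8 in iPSCs.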

Other observations

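Markers of cell types in which other SOX genes act were at mixed levels. Of 6 endoderm markers in the table, 5 were at or above 1 FPKM in iPSCs and 2 in MEFs. Gata4, an endoderm and heart factor, was at 8.74 FPKM in iPSCs and 0.00849 in MEFs. Foxa2 was at 2.42 and 0.242 FPKM, and Amn, a gene of visceral endoderm, at 4.96 and 0.0801. Dab2 was at 10.7 FPKM in iPSCs and 35.1 in MEFs, and Afp, a product of visceral endoderm, at 0.0541 and 0.0651. These values stand beside the 1.80 FPKM of Sox7 in iPSCs, and their part in it was not tested.

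Of 6 endothelial markers in the table, Pecam1 was at 26.2 FPKM in iPSCs and 0.0398 in MEFs, while Cdh5, which defines endothelium, was at 0.202 and 0.0168. Erg, an endothelial factor, was at 0.0717 FPKM in iPSCs and 5.70 in MEFs. Tek, an angiopoietin receptor, was at 0.262, 1.22, 2.06 and 2.45 FPKM over the 4 stages, and Kdr and Emcn were at or near 0.1 FPKM or below in each library. Among 5 neural markers in the table, Nes was at 16.9, 18.0, 17.9 and 4.87 FPKM and Tubb3 at 5.62, 9.91, 19.1 and 9.82, while Pax6, Dcx and Neurog2 stayed under 1 FPKM. Among neural crest markers, Erbb3 was at 6.93 FPKM in iPSCs and 0.0532 in MEFs and Foxd3 at 3.06 and 0.0187.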
